A study of Mus musculus with 15 samples.

Results

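Potassium channel genes were examined in RNA-Seq counts from whole aortas of 10-month-old male WT C57BL/6 mice. They were taken as every gene symbol that starts with Kcn, further letters and a digit, which gave 97 of 24982 symbols. Of these, 40 encode pore subunits of voltage-gated channels, 12 their auxiliary subunits, 15 inward rectifiers, 14 two-pore channels and 12 calcium-activated and related channels, and 4 are noncoding transcripts. There were 3 groups of 5 mice: control (sham operation), orchiectomized, and DHT (orchiectomy plus a pellet of dihydrotestosterone, the androgen receptor agonist). After 2 weeks of recovery every mouse received Aldo-salt, that is aldosterone at 200 μg/kg/d with drinking water of 0.9% NaCl and 0.2% KCl, and aortas were taken at day 7. Controls therefore carried Aldo-salt too, and no group here went without it. Each library came from the aorta of 1 mouse, so replicates were separate animals. Because whole aortas were used, fewer cells of a type and less RNA per cell could not be told apart. The question addressed was which channel genes differed with loss of gonadal androgen and with its replacement by DHT.

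Potassium channels let potassium leave the cell and so hold the membrane of a vascular smooth muscle cell negative, which keeps voltage-gated calcium channels shut and the vessel relaxed. In the artery wall the large-conductance calcium-activated channel (BK, pore Kcnma1, regulatory subunit Kcnmb1), the ATP-sensitive channel (pore Kcnj8, sulfonylurea receptor Abcc9), voltage-gated channels of the Kcna, Kcnh and Kcnq families and the two-pore channel Kcnk3 are found in smooth muscle. Endothelial cells use Kcnn3 and Kcnn4, and lymphocytes rely on Kcna3 and Kcnn4.

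Between 8268957 and 13816864 reads fell in genes in each library, with a median of 10930079. The 10 smooth muscle markers were present in every library, with a summed level of 12490 to 27430 CPM, that is, counts scaled to a common library size. The lowest sum was in orchiectomized library 2, which stood apart. Its 7 airway and lung epithelium markers, a list added after the data were seen, summed to 5021 CPM against 3.08 to 35.9 CPM in the other 14 libraries, and its 6 cardiac markers to 7057 CPM against 50.2 to 1355 CPM. In DHT library 5 the 7 sympathetic neuron markers summed to 1250 CPM, against 122 to 592 CPM elsewhere.

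Of the 97 genes, 54 had 10 or more counts in at least 5 libraries and were tested for fold changes: 23 of 40 voltage-gated, 8 of 12 auxiliary, 8 of 15 inward rectifier, 7 of 14 two-pore, 7 of 12 calcium-activated and 1 of 4 noncoding. A gene could pass through 1 group alone, so the tested genes are not a sample of the whole family. Kcna10, Kcnk16 and Kcnmb3 had no count in any library. The other 40 untested genes had 1 to 148 counts over all 15 libraries. Kcna3, the voltage-gated channel of T cells, was among them, with 49 counts in all.

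Per kilobase of exon, Kcnk3 and Kcnmb1 were the most abundant of the 53 tested protein-coding channel genes. Kcnk3, an acid-sensitive two-pore channel, averaged 64.0 ± 34.4 CPM per kilobase (SD, n = 5) in controls, 42.9 ± 9.49 in orchiectomized mice and 67.0 ± 33.9 in DHT-treated mice. Kcnmb1 averaged 53.2 ± 12.8, 52.2 ± 16.5 and 59.5 ± 9.53 CPM per kilobase. The level of Kcnk3 exceeded that of Kcnmb1 in 7 of 15 libraries, so the order of these 2 was not separated by the spread. Kcnh2, the hERG-type voltage-gated channel, came next at 26.7 ± 5.96, 28.3 ± 5.18 and 35.1 ± 2.94 CPM per kilobase, and lay below Kcnmb1 in 15 of 15 libraries. Kcnj8, the pore of the vascular ATP-sensitive channel, followed, below Kcnh2 in 11 of 15 libraries. Kcne4 and Kcnab1 held the next places. The BK pore Kcnma1 was 11th at 3.93 ± 1.18, 4.33 ± 1.45 and 4.96 ± 0.853 CPM per kilobase, well under its subunit Kcnmb1. Its annotated exons span 16976 bases, against 4191 for Kcnmb1, so the per-length level of Kcnma1 depends strongly on which exons are transcribed.

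**Figure D1:**
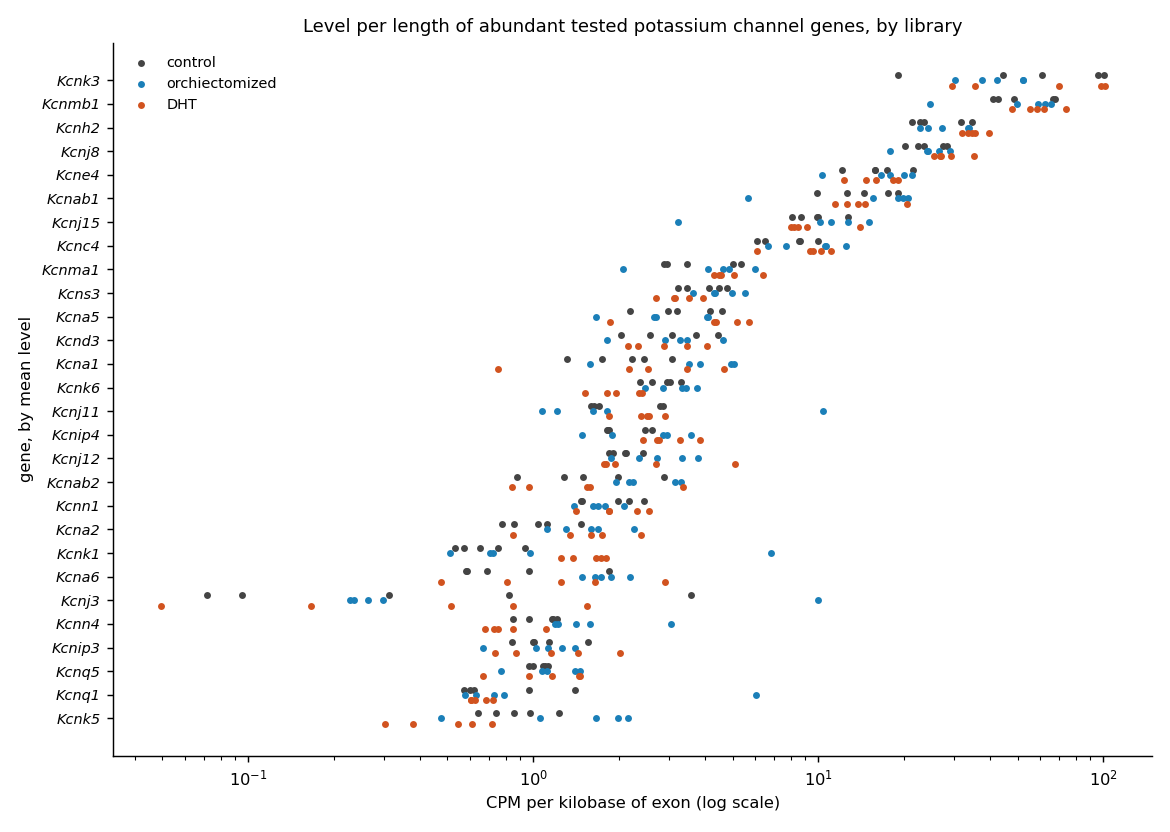
Level of abundant tested protein-coding potassium channel genes in CPM per kilobase of annotated exon, on a log scale, with 1 point per library and the groups in rows offset within each gene. Kcnk3 and Kcnmb1 lie at the top; Kcnj11, Kcnk1, Kcnj3 and Kcnq1 each have 1 orchiectomized point far to the right of the rest.

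Within a class the level was uneven. Kcnk3 made up 89.9% of the summed per-length level of the 7 tested two-pore genes, Kcnmb1 86.3% of the 7 calcium-activated genes and Kcnj8 58.5% of the 8 inward rectifiers. Kcne4 made up 42.7% of the 8 auxiliary genes and Kcnh2 37.0% of the 23 voltage-gated genes. The summed per-length level of the voltage-gated class was 74.1 ± 6.45 CPM per kilobase in controls, 80.5 ± 5.47 in orchiectomized mice and 88.6 ± 5.46 in DHT-treated mice, with ranges of 66.2 to 82.6, 73.4 to 87.1 and 82.5 to 95.3. The DHT range overlapped the control range only at its edge and the orchiectomized range more widely.

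Between orchiectomized and control aortas no tested potassium channel gene passed an unadjusted P under 0.01, the study's threshold. Kcnn4 was among the closest, at a log2 fold change of 0.66 ± 0.25 (SE; adjusted P = 0.341, edgeR quasi-likelihood test). The counts were 0 higher and 0 lower, where 2.11% and 1.12% of all 14191 tested genes were called higher and lower. At an unadjusted P under 0.05, edgeR gave 6 higher and 1 lower of the 54, beside 7.41% and 4.57% of all tested genes. With DESeq2 at P under 0.01 the counts were 0 higher and 1 lower, and with limma-voom and quality weights 1 higher (Kcna6) and 1 lower. At an adjusted P under 0.05, 0% of all genes were called in either direction, and no channel gene was. The median log2 fold change of the 54 genes was 0.22, with 38 positive and 16 negative, beside 0.04 over all tested genes. By class the median was 0.64 for inward rectifiers, 0.26 for two-pore, 0.18 for voltage-gated, 0.09 for auxiliary and -0.00 for calcium-activated genes. Without orchiectomized library 2 the median was smaller for inward rectifiers (0.06), two-pore genes (0.07), voltage-gated genes (0.16) and the 54 genes (0.14), and larger for auxiliary (0.18) and calcium-activated genes (0.16). The auxiliary and calcium-activated medians had no stable sign, at -0.03 without control 3 and -0.015 without orchiectomized 3 for auxiliary genes, and between -0.10 and 0.23 with any 1 library left out for calcium-activated genes.

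Between DHT-treated and orchiectomized aortas 5 potassium channel genes passed P under 0.01. Kcnk6, Kcnk5, Kcnn4 and Kcns3 fell and Kcnip1 rose. The share was 1 of 54 higher and 4 of 54 lower, beside 2.44% and 7.35% of all tested genes, and the 5 together were 9.26% of the 54 where 9.79% of all tested genes were called, so their number was near the background. At an adjusted P under 0.05, Kcnk6, Kcnk5 and Kcnn4 remained lower and none was higher, beside 3.89% and 0.93% of all tested genes. None of these 3 passed that threshold without orchiectomized 2, with adjusted P values of 0.075 for Kcnk6, 0.071 for Kcnk5 and 0.053 for Kcnn4, or without DHT 5, with 0.084, 0.070 and 0.077 in the same order. At an unadjusted P under 0.05, 3 of the 54 were higher and 7 lower, beside 7.29% and 13.9% of all tested genes. The median log2 fold change of the 54 genes was -0.11, with 17 positive and 37 negative, beside -0.02 over all tested genes. By class it was -0.52 for two-pore, -0.29 for inward rectifiers, -0.08 for auxiliary, -0.05 for voltage-gated and 0.19 for calcium-activated genes. Without orchiectomized library 2 the median was 0.38 for two-pore genes, 0.12 for inward rectifiers and -0.00 over the 54, so these directions or sizes rested on that library. It was then -0.21 for auxiliary, -0.04 for voltage-gated and 0.03 for calcium-activated genes, and without DHT 5 the calcium-activated median was -0.15. The auxiliary median was 0.04 without orchiectomized 4 and the voltage-gated median 0.04 without orchiectomized 3, so these also turned. This comparison shares the orchiectomized mice with the previous one.

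Between DHT-treated and control aortas Kcnk6 fell and no other channel gene passed P under 0.01. The counts of 0 higher and 1 lower stood beside 1.53% and 2.01% of all tested genes. No channel gene passed an adjusted P under 0.05 in the edgeR fit of all 15 libraries, where 0.113% of all genes were called higher and 0.148% lower. At an unadjusted P under 0.05, 3 channel genes were higher (Kcnh2, Kcna2 and Kcnip4) and 2 lower (Kcnk6 and Kcnk5), beside 5.33% and 6.5% of all tested genes, Kcna2 and Kcnip4 being named here after their values were seen. At P under 0.01 DESeq2 gave 0 higher and 1 lower, and voom with quality weights 3 higher and 1 lower. The median log2 fold change of the 54 genes was 0.09, or -0.01 without DHT 5, beside -0.00 over all genes. Of the 17 vascular channel genes listed for naming, 16 were tested. At P under 0.01, 0 rose and 0 fell in orchiectomized against control mice. Kcnk6 and Kcnn4 fell in DHT-treated against orchiectomized mice, and Kcnk6 fell in DHT-treated against control mice. In that order the called shares were 0%, 12.5% and 6.25% of the 16, beside 3.23%, 9.79% and 3.54% of all tested genes.

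**Figure D2:**
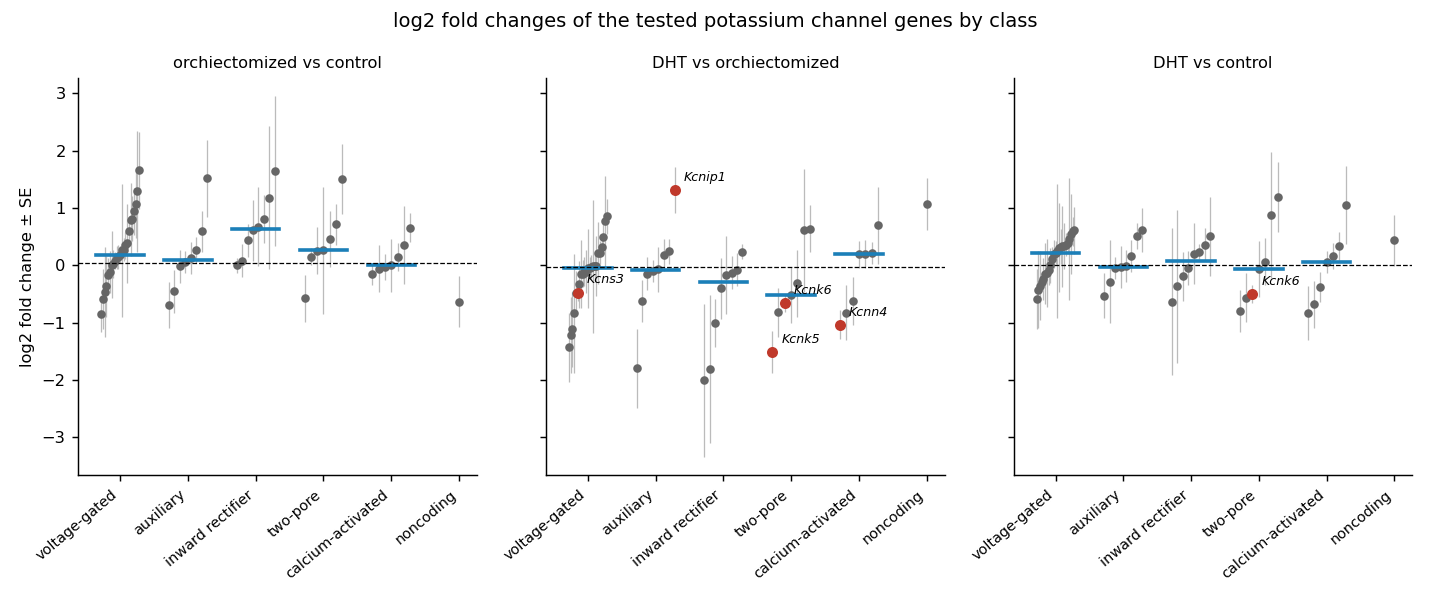
log2 fold change with its SE for each of the 54 tested potassium channel genes, sorted within its class, in the 3 comparisons (edgeR). Red points passed P under 0.01, blue bars are class medians and the dashed line is the median over all 14191 tested genes; the called genes are Kcnk6, Kcnk5, Kcnn4, Kcns3 and Kcnip1.

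Two-pore channels carry a background potassium leak. Kcnk6 (TWIK-2; chr7:29221926-29232515, minus strand, GRCm38) was at 10.9, 12.5, 9.80, 13.7 and 12.2 CPM in controls 1 to 5. It was at 10.2, 15.6, 13.8, 14.3 and 11.8 CPM in orchiectomized mice and at 10.0, 9.73, 8.08, 7.53 and 6.31 CPM in DHT-treated mice. Every DHT-treated mouse lay below every orchiectomized mouse, a separation seen in 6.43% of all tested genes, in either direction; against the controls only DHT 1 overlapped. The log2 fold change was -0.65 ± 0.16 against orchiectomized mice (adjusted P = 0.031) and -0.50 ± 0.16 against controls (adjusted P = 0.244), and 0.15 ± 0.15 for orchiectomized against control (adjusted P = 0.720), or 0.07 without orchiectomized 2. The fall against orchiectomized mice kept P under 0.01 in each of the 15 fits that left out 1 library, with log2 fold changes of -0.73 to -0.54. The fall against controls missed P under 0.01 without any 1 of controls 2, 4 and 5 or DHT 3, 4 and 5, at -0.50 to -0.42 in those fits.

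Kcnk5 (TASK-2, an alkaline-activated leak channel; chr14:20140057-20181809, minus strand) was at 2.17, 2.53, 2.92, 3.33 and 4.20 CPM in controls. It was at 1.62, 7.34, 6.72, 5.63 and 3.58 CPM in orchiectomized mice and at 1.28, 2.43, 1.03, 1.85 and 2.07 CPM in DHT-treated mice. Orchiectomized mice 2, 3 and 4 were high, and orchiectomized 1 lay inside the DHT range, so the groups overlapped. The log2 fold change of DHT against orchiectomized was -1.51 ± 0.37 (adjusted P = 0.032), and it stayed between -1.74 and -1.33 with P under 0.01 when any 1 library was left out. With orchiectomized 2, orchiectomized 3 and DHT 5 set aside together, a choice made after the data were seen, neither gene passed P under 0.01, with log2 fold changes of -1.12 for Kcnk5 (adjusted P = 0.270) and -0.44 for Kcnk6 (adjusted P = 0.303). The orchiectomized to control difference was 0.72 ± 0.36 (adjusted P = 0.434) and the DHT to control difference -0.80 ± 0.37 (adjusted P = 0.416).

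Kcnk1 (TWIK-1) gave calls that depended on how orchiectomized 2 entered the fit. It was at 1.45, 1.69, 2.09, 1.27 and 1.19 CPM in controls and at 3.85, 2.79, 3.72, 3.09 and 4.03 CPM in DHT-treated mice, so all DHT-treated mice lay above all controls, as in 3.56% of tested genes in either direction. Orchiectomized mice were at 1.62, 15.3, 2.18, 1.58 and 1.14 CPM, and library 2 alone lay above the DHT range. With all libraries the log2 fold change was 1.19 ± 0.61 against controls (adjusted P = 0.467) and -0.32 ± 0.59 against orchiectomized mice (adjusted P = 0.806). Without orchiectomized 2 it was 1.19 ± 0.23 (adjusted P = 0.030) and 1.11 ± 0.24 (adjusted P = 0.030), both past P under 0.01. With only the DHT-treated and control groups in the edgeR fit, the value against controls was 1.19, also past P under 0.01 (adjusted P = 0.048). The Kcnk1 exons share 8.01% of their bases with an antisense transcript.

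Kcnk3 was the most variable of the abundant genes. Controls were at 380, 176, 398, 75.4 and 242 CPM, orchiectomized mice at 207, 208, 120, 169 and 149 CPM, and DHT-treated mice at 117, 141, 278, 404 and 391 CPM. The groups overlapped, and the log2 fold changes were -0.58 ± 0.41 (orchiectomized against control, adjusted P = 0.584), 0.64 ± 0.41 (DHT against orchiectomized, adjusted P = 0.397) and 0.07 ± 0.41 (DHT against control, adjusted P = 0.965), the last being -0.11 without DHT 5. The 6 brown adipocyte markers, fat that lines the aorta in mice, summed to 4350, 2102, 4561, 1204 and 2969 CPM in controls, to 1109 to 2196 CPM in orchiectomized mice and to 1548, 1597, 2751, 4352 and 3351 CPM in DHT-treated mice. Control 1, control 3, DHT 4 and DHT 5 were thus high and control 4 low in both. Orchiectomized 2 went the other way, with the lowest marker sum of all libraries (1109 CPM) and the highest Kcnk3 of its group (208 CPM). The part of fat in the Kcnk3 values was not tested. The other tested two-pore genes, Kcnk2, Kcnk10 and Kcnk13, did not pass the threshold in any comparison.

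Among the calcium-activated genes only Kcnn4 passed the threshold. Kcnn4 (KCa3.1, the intermediate-conductance channel of endothelial cells, lymphocytes and proliferating smooth muscle; chr7:24370263-24386690, plus strand) was at 4.35, 6.18, 5.95, 4.96 and 6.02 CPM in controls and at 6.25, 15.6, 6.11, 8.11 and 7.24 CPM in orchiectomized mice. In DHT-treated mice it was at 3.85, 5.67, 3.72, 3.46 and 4.34 CPM. Every DHT-treated mouse lay below every orchiectomized mouse, while DHT and control ranges overlapped. The log2 fold change was -1.03 ± 0.25 for DHT against orchiectomized (adjusted P = 0.033), 0.66 ± 0.25 for orchiectomized against control (adjusted P = 0.341) and -0.38 ± 0.25 for DHT against control (adjusted P = 0.580). Orchiectomized 2 held the highest value, and without it the fall was -0.70 ± 0.18 (adjusted P = 0.053) and the orchiectomized to control difference 0.33 ± 0.18 (adjusted P = 0.704). All 15 fits that left out 1 library kept P under 0.01.

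Sequence around and upstream of the start of Kcnk5 and Kcnn4 is shown because these 2 genes had the largest falls with DHT among the called genes. The RefSeq promoter table (GRCm38.p6) held 56 windows for 39 of the 54 tested genes, and Kcnk6 was not among them. The 250 bases before each start in that table are printed from 5′ to 3′ on the gene's strand, with matches to 3 motifs in capitals: the androgen receptor hexamer AGAACA, the E-box CACGTG bound by clock and other basic helix-loop-helix factors, and the GC box GGGCGG, each searched on both strands.
Kcnk5, chr14:20181783-20182032, minus strand: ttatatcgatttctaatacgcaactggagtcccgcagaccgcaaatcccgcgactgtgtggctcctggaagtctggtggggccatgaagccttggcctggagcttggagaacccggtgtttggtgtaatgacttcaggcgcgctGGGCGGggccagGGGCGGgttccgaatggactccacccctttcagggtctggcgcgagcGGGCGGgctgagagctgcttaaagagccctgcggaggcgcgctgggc
Kcnn4, chr7:24370013-24370262, plus strand: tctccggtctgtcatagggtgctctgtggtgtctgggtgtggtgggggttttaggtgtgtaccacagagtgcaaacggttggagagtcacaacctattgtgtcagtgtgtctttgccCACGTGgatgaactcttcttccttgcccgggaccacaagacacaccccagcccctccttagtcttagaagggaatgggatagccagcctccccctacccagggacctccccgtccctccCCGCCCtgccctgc
RefSeq and GENCODE, from which the gene positions above are taken, place the start of Kcnk5 differently, so the last bases of its stretch lie inside the GENCODE gene. The Kcnk5 stretch held 3 GC boxes and the Kcnn4 stretch 1 GC box and 1 E-box, and neither held the hexamer. Only the 250 bases before each start were searched, so sites farther upstream were not. The paper looked for the hexamer in a far longer stretch of the PD-1 promoter. Among all 32851 such stretches in the table, 32.7% held a GC box, 6.02% the E-box and 16.1% the hexamer. Among the 56 stretches of channel genes, 20 held a GC box, 5 the E-box and 5 the hexamer. The hexamer followed 3 bases later by its reverse complement was present in 3 of all stretches and in 0 of the 56.

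The BK channel genes did not pass the threshold in any comparison. Kcnma1 was at 58.8, 84.9, 48.9, 91.2 and 49.995 CPM in controls, at 82.5, 34.9, 102, 69.5 and 78.9 CPM in orchiectomized mice and at 109, 86.0, 75.9, 77.3 and 73.0 CPM in DHT-treated mice. Kcnmb1 was at 204, 278, 172, 283 and 178 CPM in controls, at 261, 104, 246, 209 and 275 CPM in orchiectomized mice and at 310, 260, 246, 232 and 201 CPM in DHT-treated mice. For both genes orchiectomized 2 was the lowest of all libraries and DHT 1 the highest, and the groups overlapped. The DHT to orchiectomized log2 fold changes were 0.20 ± 0.25 (Kcnma1, adjusted P = 0.697) and 0.19 ± 0.23 (Kcnmb1, adjusted P = 0.685). Without orchiectomized 2 both were 0.03 (adjusted P = 0.946 and 0.950). The log2 ratio of Kcnmb1 to Kcnma1 was 1.75 ± 0.08 in controls, 1.57 ± 0.19 in orchiectomized and 1.56 ± 0.09 in DHT-treated mice (SD, n = 5). The DHT to control difference of -0.19 gave P = 0.016 in a two-sided exact permutation test and an adjusted P of 0.214 over the 27 tests of 9 ratios in 3 comparisons, where 0.0079 is the smallest P that 5 against 5 can give.

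Each BK gene was also set against the mean log2 level of the 10 smooth muscle markers. The summed level of these markers was 16020 to 23050 CPM in controls, 12490 to 22940 CPM in orchiectomized mice and 22300 to 27430 CPM in DHT-treated mice; all 10 had positive fold changes in DHT against orchiectomized mice, 6 of them at P under 0.05 and 0 at P under 0.01. Relative to the markers, Kcnmb1 was 0.26 lower on the log2 scale in DHT-treated than in control mice (-2.60 ± 0.15 against -2.35 ± 0.14, exact permutation P = 0.016, adjusted P = 0.214). The same ratio differed by -0.21 between DHT and orchiectomized mice (exact permutation P = 0.262), or by -0.37 without orchiectomized 2 (exact permutation P = 0.016, not adjusted). For Kcnma1 the corresponding differences were -0.07 (P = 0.611) and -0.21 (P = 0.365), both by the exact permutation test. Without orchiectomized 2 the latter was -0.36 (exact permutation P = 0.032, not adjusted), close to the value for Kcnmb1. None of the 27 tests passed an adjusted P of 0.05.

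**Figure D3:**
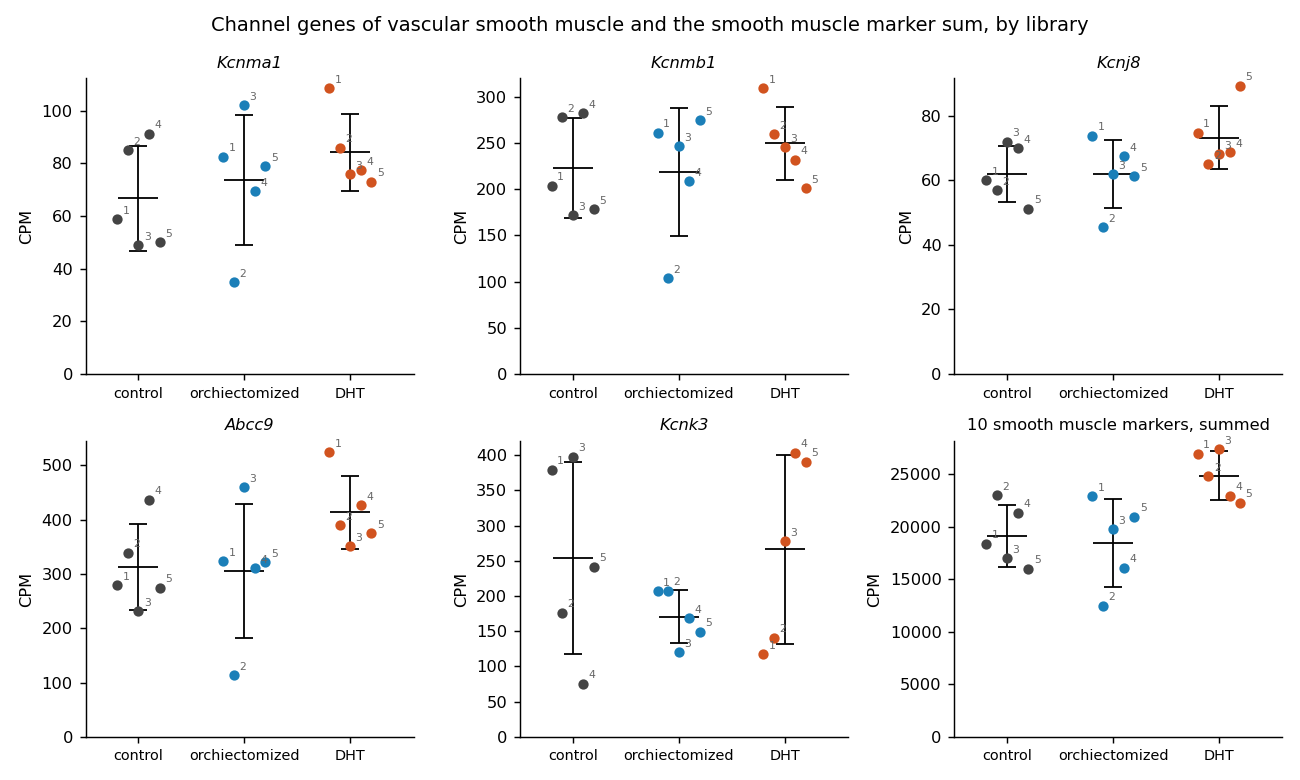
CPM in each library for Kcnma1, Kcnmb1, Kcnj8, Abcc9 and Kcnk3, and the summed CPM of 10 smooth muscle markers, with replicate numbers beside the points and bars for mean ± SD (n = 5). Orchiectomized 2 is lowest in its group for all but Kcnk3, and the 5 DHT-treated mice sit at 22300 to 27430 CPM for the marker sum.

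The small-conductance channels Kcnn1 and Kcnn3 and the sodium-activated channel Kcnt1 did not pass the threshold. Kcnn3, which endothelial cells use with Kcnn4, was at 2.08 to 4.03 CPM in controls, 1.08 to 7.25 CPM in orchiectomized mice and 0.641 to 3.06 CPM in DHT-treated mice, with a DHT to orchiectomized log2 fold change of -0.82 ± 0.47 (adjusted P = 0.335). The log2 ratio of Kcnn4 to Kcnn3 differed by -0.31 in that comparison (exact permutation P = 0.587). Kcnt1 was highest in DHT 5 at 9.72 CPM, with 1.15 to 3.33 CPM in the other DHT-treated mice. Kcnk10 (4.03 CPM), named after its values were seen, was also highest in DHT 5, the library with the highest sum of neuron markers.

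The falls of Kcnk6, Kcnk5 and Kcnn4 went together with lower levels of endothelial, immune cell, mesothelial and fibroblast markers in DHT-treated than in orchiectomized mice. The 10 endothelial markers summed to 896 to 1320 CPM in controls, 975 to 1587 CPM in orchiectomized and 770 to 981 CPM in DHT-treated mice, and 3 of 10 fell at P under 0.01, where 7.35% of all tested genes were called lower. The 8 macrophage markers summed to 358 to 915, 612 to 1461 and 334 to 643 CPM, and 4 of 8 fell. The T cell markers summed to 4.31 to 14.4, 8.18 to 62.9 and 4.45 to 7.66 CPM, and 7 of 7 tested fell. The B cell markers summed to 3.28 to 8.34, 6.35 to 155.7 and 2.65 to 10.99 CPM, and 5 of 5 tested fell. Both sums were highest in orchiectomized 2, 3 and 4, where Kcnk5 was also high. The 6 markers of mesothelium, the cell layer that lines body cavities, summed to 34.5 to 96.2 CPM in controls, 46.7 to 380 CPM in orchiectomized and 8.85 to 24.1 CPM in DHT-treated mice, so the DHT range lay below both others, and 6 of 6 fell against orchiectomized mice. The tops of the endothelial, macrophage and mesothelial ranges in orchiectomized mice were in orchiectomized 2. The other orchiectomized mice reached 1180, 852.8 and 88.65 CPM. The 8 fibroblast markers summed to 4381 to 6346, 4236 to 6898 and 3170 to 4909 CPM, and 3 of 8 fell. No endothelial, macrophage, T cell, mesothelial or fibroblast marker in the files was at 0 in any library, and 1 B cell marker was at 0 in some. The part of cell composition in the 3 falls was not tested.

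Voltage-gated pore subunits open on depolarization. Kcns3 (Kv9.3, a silent subunit that conducts only together with other Kv pore subunits; chr12:11090202-11151056, minus strand) was at 14.1, 10.96, 13.04, 10.2 and 15.1 CPM in controls and at 13.6, 13.7, 15.8, 17.5 and 11.5 CPM in orchiectomized mice. In DHT-treated mice it was at 9.84, 8.56, 11.2, 12.5 and 9.93 CPM, a range that overlapped the orchiectomized one only through orchiectomized 5 and DHT 4. The log2 fold change of DHT against orchiectomized was -0.47 ± 0.15 (adjusted P = 0.085). The call was lost in 9 of the 15 fits that left out 1 library, those without control 1 or 3, orchiectomized 2, 3 or 4, or DHT 1, 2, 3 or 5, and in most other settings, at -0.48 to -0.36 with 1 library left out.

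**Figure D4:**
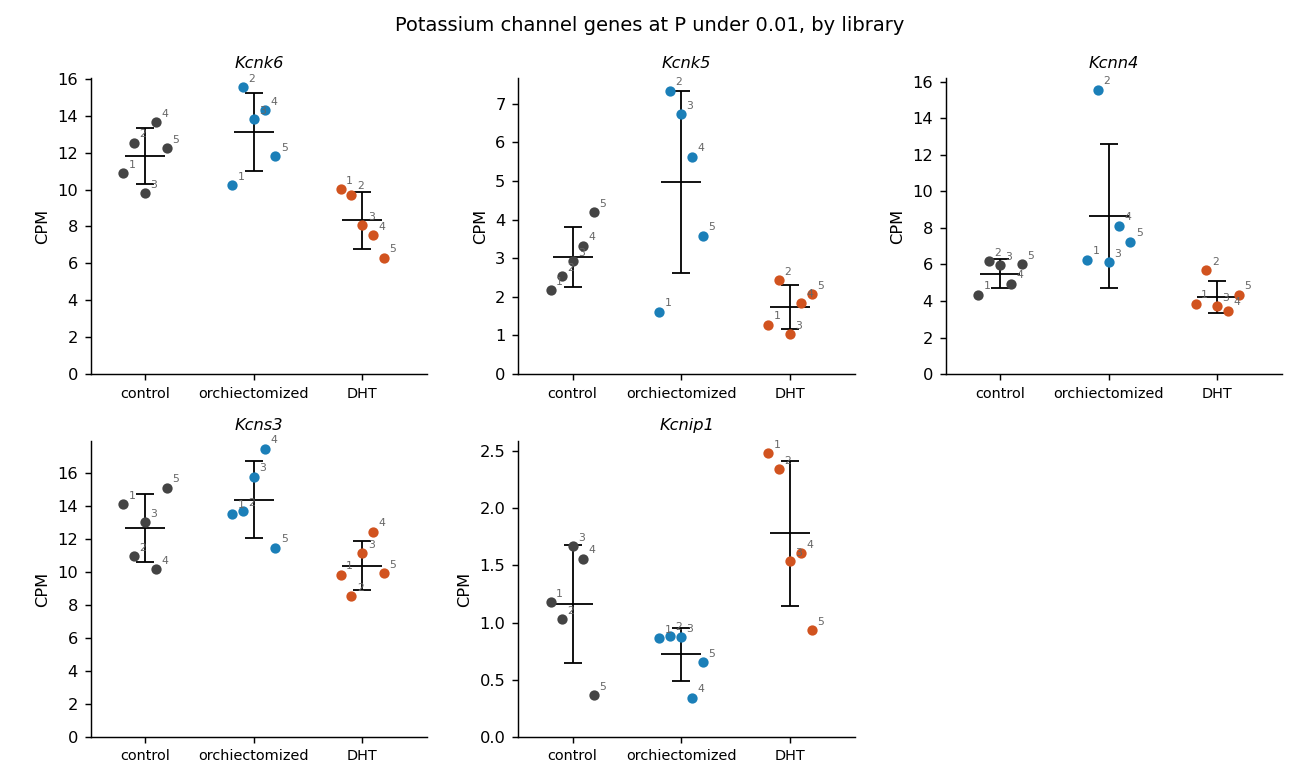
CPM of Kcnk6, Kcnk5, Kcnn4, Kcns3 and Kcnip1 in each of 15 libraries, with replicate numbers beside the points and bars for mean ± SD (n = 5 per group). DHT points lie below all orchiectomized points for Kcnk6 and Kcnn4 and above them for Kcnip1, while Kcnk5 and Kcns3 overlap.

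Other voltage-gated genes of the artery wall did not pass the threshold. Kcnh2 was at 103 to 167 CPM in controls, 110 to 164 CPM in orchiectomized mice and 155 to 193 CPM in DHT-treated mice, with a DHT to control log2 fold change of 0.39 ± 0.15 (adjusted P = 0.353). It passed P under 0.01 only with voom and quality weights (adjusted P = 0.107) and without control 4. Kcnq5, a subunit of the M-type channels that relax arteries, had a log2 fold change of 0.12 ± 0.21 (adjusted P = 0.863) in that comparison, or 0.01 without DHT 5. Kcna5 (Kv1.5) was at 6.23 to 13.1 CPM in controls, 4.74 to 11.7 CPM in orchiectomized mice and 5.30 to 16.3 CPM in DHT-treated mice, and its DHT to orchiectomized log2 fold change was 0.49 ± 0.30 (adjusted P = 0.372). Kcna6, a neuronal Kv1 subunit, had an orchiectomized to control log2 fold change of 0.94 ± 0.42 (adjusted P = 0.398), but 39.6% of its exon bases overlap an antisense gene and the strand setting of the counting is not given, so the reads cannot be assigned to it with certainty. Kcna3 had 0 to 5 counts in controls, 1 to 20 in orchiectomized mice and 0 to 2 in DHT-treated mice. The count of 20 was in orchiectomized 3, the library with the highest T cell sum (62.9 CPM) and the highest thymocyte marker sum (77.2 CPM, against 0 to 5.91 CPM elsewhere; this list was added after the data were seen).

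Auxiliary subunits change the gating and surface level of pore subunits. Kcnip1 (KChIP1, a calcium-binding partner of Kv4 channels; chr11:33629339-33993152, minus strand) was at 1.18, 1.03, 1.67, 1.56 and 0.365 CPM in controls, at 0.861, 0.884, 0.873, 0.343 and 0.651 CPM in orchiectomized mice and at 2.48, 2.34, 1.54, 1.61 and 0.931 CPM in DHT-treated mice. Every DHT-treated mouse lay above every orchiectomized mouse, and the controls spanned both. The log2 fold change was 1.31 ± 0.40 (adjusted P = 0.074), and the gene lost P under 0.01 without orchiectomized 4 or 5 or DHT 1 or 2, at 1.16 to 1.28. The gene body of Kcnip1 spans the abundant Kcnmb1 on the opposite strand, and the 2 genes share 0 annotated exon bases.

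Kcnab1, the β subunit of Kv1 channels, and Kcne4 were the most abundant auxiliary genes and did not pass the threshold. Kcnab1 was at 84.9 to 164 CPM in controls, 48.8 to 177 CPM in orchiectomized mice and 98.4 to 176 CPM in DHT-treated mice, and Kcne4 at 32.1 to 57.1, 27.3 to 56.5 and 32.7 to 50.4 CPM. Both had their lowest value in orchiectomized 2. The DHT to orchiectomized log2 fold changes were -0.14 ± 0.29 (adjusted P = 0.820) and -0.10 ± 0.19 (adjusted P = 0.819). They were -0.35 (adjusted P = 0.335) and -0.22 (adjusted P = 0.453) without orchiectomized 2, and -0.08 and -0.04 without DHT 5. The ratios of Kcnab1 to Kcna5 and of Kcne4 to Kcnq1 had exact permutation P values of 0.389 to 0.818 over the 3 comparisons. Kcnab2 was at 5.39, 8.83, 8.59, 4.69 and 18.7 CPM in DHT-treated mice against 10.9 to 18.5 CPM in orchiectomized mice, a log2 fold change of -0.62 ± 0.36 (adjusted P = 0.343) that was -1.02 and past P under 0.01 without DHT 5 (adjusted P = 0.102).

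Inward rectifiers pass potassium near the resting potential. The ATP-sensitive pore Kcnj8 was at 60.1, 56.8, 71.9, 69.9 and 51.2 CPM in controls, at 73.8, 45.4, 61.8, 67.3 and 61.3 CPM in orchiectomized mice and at 74.7, 64.9, 68.1, 68.7 and 89.3 CPM in DHT-treated mice. Its receptor Abcc9, taken from a list of 9 subunits whose symbols lie outside the Kcn pattern, was at 232 to 436, 114 to 459 and 351 to 524 CPM. The groups overlapped for both. The DHT to orchiectomized log2 fold changes were 0.24 ± 0.13 (Kcnj8, adjusted P = 0.320) and 0.43 ± 0.27 (Abcc9, adjusted P = 0.383), and the log2 ratio of Kcnj8 to Abcc9 differed by -0.31 (exact permutation P = 0.341). Without orchiectomized 2 the Abcc9 value was 0.24 (adjusted P = 0.494). Of the 9 outside subunits 5 were tested and 0 passed P under 0.01 or P under 0.05 with edgeR in any comparison.

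Several inward rectifiers had their highest level in orchiectomized 2. Kcnj3 and Kcnj5, the acetylcholine-activated channel pair of the cardiac atrium, were at 52.2 and 35.5 CPM there, against 1.18 to 1.55 and 0 to 1.24 CPM in the other orchiectomized mice. Control 5, with the second highest cardiac marker sum at 1355 CPM, had 18.7 and 8.85 CPM, and the other controls 0.375 to 4.28 and 0.142 to 1.31 CPM. In the 5 DHT-treated mice they were at 0.257 to 8.07 and 0.494 to 3.31 CPM, with the highest of both in DHT 5, where the cardiac sum was 928 CPM. Kcnj3 shares 31.1% of its exon bases with a noncoding gene on the other strand. Their orchiectomized to control log2 fold changes of 1.18 ± 1.25 and 1.64 ± 1.31 became -1.92 ± 1.05 and -2.06 ± 1.03 without orchiectomized 2. The part of heart tissue in these values was not tested.

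Kcnj11, the other ATP-sensitive pore, was at 5.88 to 10.5 CPM in controls and at 6.80 to 10.7 CPM in DHT-treated mice. Orchiectomized mice were at 6.68, 38.3, 3.93, 4.47 and 5.94 CPM, so that all but library 2 lay below every DHT-treated mouse. With all libraries the DHT to orchiectomized log2 fold change was -0.40 ± 0.53 (adjusted P = 0.711), and without orchiectomized 2 it was 0.79 ± 0.23, past P under 0.01 (adjusted P = 0.081). The ratio of Kcnj11 to Kcnj8 moved likewise, from a log2 difference of -0.07 (exact permutation P = 1.0) to 0.59 (exact permutation P = 0.016, not adjusted). Kcnj2 (Kir2.1) was at 13.7 CPM in orchiectomized 2 and at 2.31 to 4.28 CPM in all other libraries, and its DHT to orchiectomized log2 fold change went from -1.01 ± 0.42 (adjusted P = 0.184) to -0.22 ± 0.22 (adjusted P = 0.591) without it. Kcnj15, an inward rectifier also found in epithelia, was at 20.3 CPM there against 50.8 to 95.3 CPM elsewhere.

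**Figure D5:**
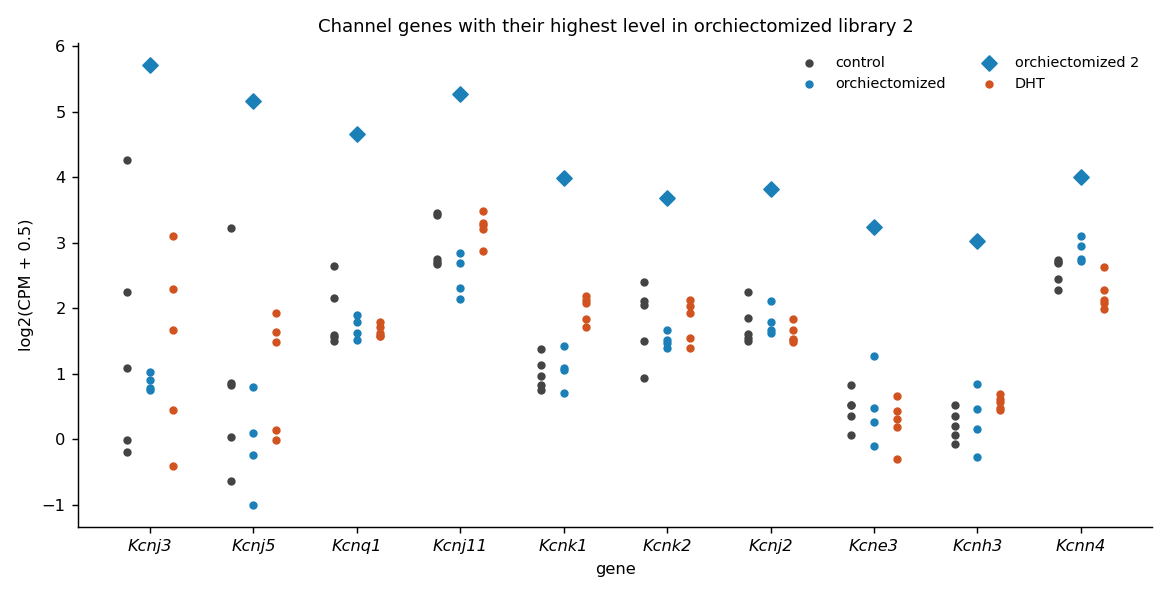
log2(CPM + 0.5) of 10 potassium channel genes in 15 libraries, with orchiectomized 2 as a diamond. The diamond is the highest point for each gene; for Kcnk1 and Kcnj11 the other orchiectomized points lie below the 5 DHT points.

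In total 18 of the 54 tested genes had their highest level in orchiectomized 2 and 14 their lowest, and 14 had their highest in DHT 5. Among the 31 untested genes with 10 or more counts in all, 6 had more than 50% of their counts in orchiectomized 2. These were Kcnmb2 (137 of 143), Kcne2 (80 of 85), Kcnk12 (71 of 81), Kcns1 (9 of 11), Kcnj13 (82 of 131) and Kcnj1 (10 of 19), named after their counts were seen. Kcnq1 was at 24.8 CPM in orchiectomized 2 and at 2.34 to 5.75 CPM elsewhere, and its DHT to orchiectomized log2 fold change of -1.43 ± 0.60 (adjusted P = 0.185) was -0.06 ± 0.27 (adjusted P = 0.924) without it. Kcne3, Kcnh3 and Kcnk2 were likewise highest there, at 8.93, 7.69 and 12.4 CPM and at most 1.92, 1.29 and 4.80 CPM elsewhere. Kcna7, a muscle Kv1 gene chosen after its values were seen, was at 3.01 CPM in orchiectomized 2 and at 0.108 to 0.407 CPM in the other orchiectomized mice, and without that library it was 2.48 ± 0.65 higher on the log2 scale in DHT-treated than in orchiectomized mice (adjusted P = 0.054). With all libraries the difference was 0.77 ± 0.79 (adjusted P = 0.620). The 9 skeletal muscle markers summed to 422 CPM in orchiectomized 2 and to 14.3 to 66.9 CPM in the other orchiectomized mice, against 120.3 to 502 CPM in DHT-treated mice, so the other orchiectomized mice lay below every DHT-treated mouse for the markers as for Kcna7. The part of skeletal muscle in the Kcna7 values was not tested.

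The noncoding Kcnq1ot1, the imprinted antisense transcript of the Kcnq1 locus, was at 5.53 to 15.7 CPM in controls, at 5.38, 5.57, 14.4, 4.05 and 4.07 CPM in orchiectomized mice and at 5.65, 16.5, 7.18, 28.3 and 13.03 CPM in DHT-treated mice. The groups overlapped. Its DHT to orchiectomized log2 fold change was 1.07 ± 0.45 (adjusted P = 0.183), which became 1.60, past P under 0.01, without orchiectomized 3 (adjusted P = 0.058) and 0.68 (adjusted P = 0.423) without DHT 4.

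For comparison, a list of 51 calcium channels, transient receptor potential channels, connexins, pumps and exchangers was examined, of which 48 were tested. In DHT-treated against orchiectomized mice 0 of 48 rose and 5 fell at P under 0.01, which is 10.4% called, beside 9.79% of all tested genes (2.44% higher and 7.35% lower). Among these were Itpr3, an inositol trisphosphate receptor (-0.89 ± 0.22, adjusted P = 0.032), the cation channel Trpv4 (-0.77), the calcium sensor Stim2 (-0.31) and the calcium pump Atp2b1 (-0.44), as log2 fold changes. In orchiectomized against control mice 0 rose and the connexin Gja1 fell (-0.49 ± 0.12, adjusted P = 0.235). In DHT-treated against control mice Trpv2, a cation channel, rose (0.41 ± 0.13, adjusted P = 0.259) and 0 fell. Each is 2.08% of the list called, beside 3.23% and 3.54% of all tested genes in the same order.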

How the data were processed

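Whole-aorta RNA was sequenced from poly(A) libraries by the study. The deposited files hold raw counts per gene symbol for each library, made by the authors; the submitters' processing notes name STAR, Cufflinks and DESeq2 and the mouse build mm10, with no versions or roles, and the counter and its strand setting are not given in the sources used here. Reads outside genes (6.26% to 14.4% of each library's entries) and ambiguous reads (1.34% to 1.97%) were left out. Genes with 10 or more counts in at least 5 of 15 libraries (14191 of 24982) were fitted in edgeR 4.0.16 (R 4.3.3) with TMM normalization and the quasi-likelihood test, all 3 groups sharing 1 estimate of the spread. P values were adjusted over all tested genes (Benjamini-Hochberg). Calls used an unadjusted P under 0.01, as the study did with DESeq2, and an adjusted P under 0.05. CPM used TMM library sizes, and CPM per kilobase used GENCODE M21 exons (GRCm38). Partner ratios were log2 ratios of CPM + 0.5 (Python 3.11.15), compared by exact permutation. DESeq2 1.42.0, limma 3.58.1 (voom), other filters and scalings, a replicate block and leaving out each library were alternatives.

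The genes named were those at P under 0.01 in any comparison, the 3 most abundant tested genes and the largest fold change per class and comparison, a list of 17 vascular channel genes, and Abcc9 and called genes of the other lists. The members, lists and tests were chosen with earlier results of these data known. Counts below the filter are given without a test. Depth sets the precision of low genes such as Kcnip1, at about 1 CPM. A few genes that met these rules are not reported here.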

Additional observations from a re-analysis of the deposited data

Results flagged for a closer look

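In a group of 5, a library was flagged for a named gene where its gap to the nearest value exceeded 0.71 of the group's range; chance flags about 1 in 20 groups. Of 93 groups (31 genes in 3 groups), 17 held such a library. In orchiectomized 2 these were Kcnj3 (52.2 CPM), Kcnj11 (38.3 CPM), Kcnj5 (35.5 CPM), Kcnq1 (24.8 CPM), Kcnn4 (15.6 CPM), Kcnk1 (15.3 CPM), Kcnj2 (13.7 CPM), Kcnk2 (12.4 CPM), Kcne3 (8.93 CPM) and Kcnh3 (7.69 CPM), all high. In control 5 they were Kcnj3 (18.7 CPM) and Kcnj5 (8.85 CPM), in DHT 4 Kcnj15 (88.1 CPM), and in orchiectomized 3 Kcnq1ot1 (14.4 CPM) and Kcna3 (1.75 CPM). Kcnt1 was flagged in control 3 (4.07 CPM) and in DHT 5 (9.72 CPM).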

How the results depend on the processing

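The 96 fold changes recomputed gave 2457 values under 26 alternatives, of which 2390 kept their side of P under 0.01; 31 lost it, 31 gained it and 5 reversed. Kcnk1 in DHT against orchiectomized mice, -0.32 in full, was 1.15 with voom and quality weights, 1.05 with orchiectomized 2 and DHT 5 set aside and 1.23 with orchiectomized 3 set aside too, both chosen after the data were seen; leaving out 1 library gave -0.56 to 1.11. The same range was -0.57 to 0.79 for Kcnj11 and -0.30 to 0.59 for the ratio of Kcnj11 to Kcnj8; the highest value of each came without orchiectomized 2.

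Genes higher and lower at P under 0.01 in orchiectomized against control mice (0 and 0 in full) were 0 and 1 with DESeq2, with only the 2 groups compared, with the replicate block and with 2 libraries set aside, 1 and 1 with all genes of at least 1 count and with voom, and 0 to 2 and 0 to 1 leaving out 1 library. For DHT against orchiectomized mice (1 and 4) they were 2 and 4 with DESeq2, 2 and 5 with all genes of at least 1 count, 0 and 2 with 10 or more counts in every library, 3 and 3 with voom, 3 and 4 with 2 libraries and 3 and 1 with 3 libraries set aside, and 0 to 4 and 3 to 5 leaving out 1 library; 4 rose without orchiectomized 2. For DHT against control mice (0 and 1) they were 1 and 1 with only the 2 groups compared, 3 and 1 with voom, 1 and 0 with 2 or 3 libraries set aside, and 0 to 1 each leaving out 1 library. At an adjusted P under 0.05 the 3 genes of DHT against orchiectomized mice became 5 with DESeq2, 0 with only the 2 groups compared, 0 with 2 or 3 libraries set aside, and 0 to 4 leaving out 1 library (0 without orchiectomized 4 or DHT 3, 4 or 5; without orchiectomized 2 the 1 called was Kcnk1, higher, so all 3 were lost there too). For DHT against control mice the count of 0 became 1 (Kcnk1) with only the 2 groups compared and without orchiectomized 2. It stayed 0 leaving out any other 1 library, and was 0 in each setting for orchiectomized against control mice. The cause of these shifts was not tested.

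Replicate numbers are only names here: same-numbered libraries correlated at -0.46 to 0.46, over 0.1 in 4 of 15 pairs. With the replicate block, DHT against orchiectomized mice gave 1 higher, 3 lower and 2 at an adjusted P under 0.05. Genes below about 1 CPM rest on few counts, so small differences in them were not detectable at this depth.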
